A study of Mus musculus with 2 samples.

Results

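The 10 genes described here encode extracellular matrix proteins and the enzymes that cut them or hold the enzymes in check: the matrix proteins Fn1, Postn, Col6a3, Tgfbi, Vcan and Thbs1, the metalloproteinases Mmp12, Mmp14 and Mmp19, and the inhibitor Timp2. They were taken by symbol from the 31053 genes of the files, and each symbol matched 1 gene. The genes were chosen by levels measured in these same libraries, so their differences between the libraries describe the choice and test nothing. Both libraries came from retinas of C57BL/6 mice aged 6 to 8 weeks, 2 weeks after an optic nerve injury. One library was from mice given MSC-sEV, a name that the labels do not spell out, and the other from mice given PBS. Each library pooled the retinas of 6 mice, so there is 1 sample per group, no spread between mice can be seen and no p-value is given.

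The tissue was digested with papain and DNase, and cells carrying CD45, the surface marker of leukocytes, were enriched on magnetic beads. A UMI marks 1 captured RNA molecule, and a barcode was kept when it had 500 UMIs or more, 300 genes or more, and no more than 15% of its UMIs in mitochondrial genes. After doublet calls were left out, 2319 cells remained of MSC-sEV and 1344 of PBS, with a median of 2922 and 2596 UMIs per cell and no barcode in common. The labels call the cells retinal immune cells, but rod-like clusters held 1169 MSC-sEV and 655 PBS cells, and Ptprc, the CD45 gene, was seen in 0.893% to 20.6% of the cells of these clusters. Clusters were named from cell type markers. Microglia-like cells lay in 3 clusters, of which cluster 7 held 212 MSC-sEV and 2 PBS cells, cluster 8 held 0 and 38, and cluster 11 held 199 and 63. Ptprc was seen in 94.4% of the cells of cluster 7, 100% of cluster 8 and 29.0% of cluster 11. Macrophage-like cells (214), T cell-like cells (62), migratory dendritic cell-like cells (50) and an unnamed cluster led by Ccr3 and Retnlg (137) were all from MSC-sEV, and the 0 macrophage-like cells among 1344 PBS cells allow a share of up to 0.223%.

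The extracellular matrix is the mesh of proteins around cells, and in the retina much of it lies in basement membranes and between photoreceptors. Macrophages are best known for cutting matrix, and they also secrete matrix proteins in wounds and scars. Fibronectin, the product of Fn1, binds integrins on cells, and periostin, the product of Postn, and the TGF-beta-induced protein of Tgfbi bind it or other matrix fibres and cells. Col6a3 encodes a chain of collagen VI, which normally assembles with the chains of Col6a1 and Col6a2. Mmp12 is macrophage elastase, Mmp14 is a membrane-bound collagenase that activates pro-MMP2 together with Timp2, and Timp2 at higher amounts inhibits metalloproteinases.

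Col6a3 and Postn were counted almost entirely in C1q-positive cells of the MSC-sEV library. A cell was called C1q-positive with at least 3 UMIs of the complement genes C1qa, C1qb and C1qc making up at least 0.1% of its UMIs, which took 580 MSC-sEV cells (25.0%) and 203 PBS cells (15.1%). Of all Col6a3 UMIs in the MSC-sEV cells, 98.7% lay in C1q-positive cells, and of all Postn UMIs 98.8%. The PBS library had 0 Col6a3 UMIs in all its analysed cells and 4 Postn UMIs, none of them in C1q-positive cells. Col6a3 lies on chromosome 1, minus strand, at chr1:90765923-90843971, and Postn on chromosome 3, plus strand, at chr3:54361109-54391037, in GENCODE M21 for GRCm38. Their upstream sequences are shown because the pair was found in the same cells, and that of Mmp12 (chromosome 9, plus strand, chr9:7344381-7369499) because its UMIs were in so few cells. Each run is 250 bases long, ends just before a start site, reads 5′ to 3′ on the gene's strand and comes from RefSeq on GRCm38.p6, which held 7 of the 10 genes. Capitals mark the motifs TATAAA and TGANTCA, searched on both strands. The windows are chr1:90843972-90844221 (minus), chr3:54360857-54361106 (plus) and chr9:7347124-7347373 (plus), of which the last lies inside the annotated gene span.
Col6a3: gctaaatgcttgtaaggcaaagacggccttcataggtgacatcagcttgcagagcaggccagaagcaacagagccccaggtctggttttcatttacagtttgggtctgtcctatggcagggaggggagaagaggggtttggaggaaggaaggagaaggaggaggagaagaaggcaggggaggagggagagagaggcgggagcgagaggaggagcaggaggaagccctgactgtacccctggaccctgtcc
Postn: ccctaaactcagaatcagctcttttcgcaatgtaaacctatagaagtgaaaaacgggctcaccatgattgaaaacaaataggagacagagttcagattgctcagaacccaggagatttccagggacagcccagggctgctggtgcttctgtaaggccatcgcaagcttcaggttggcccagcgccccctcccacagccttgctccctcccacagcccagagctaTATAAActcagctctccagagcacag
Mmp12: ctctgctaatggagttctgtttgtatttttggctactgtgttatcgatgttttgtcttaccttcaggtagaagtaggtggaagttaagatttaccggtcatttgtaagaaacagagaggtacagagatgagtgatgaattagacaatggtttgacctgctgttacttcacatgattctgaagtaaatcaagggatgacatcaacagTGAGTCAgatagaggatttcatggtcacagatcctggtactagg

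TATAAA, the core of a TATA box, stood 26 bases before the start of Postn and in none of the other 6 windows, and 12.4% of 32851 windows of this length held it. TGANTCA, the letters that AP-1 factors bind, stood 44 bases before the start of Mmp12 as TGAGTCA, in 1 of the 7 windows against 6.75% of all. The Col6a3 window held neither. These matches describe the letters only.

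In C1q-positive cells, Col6a3 had 524 UMIs in MSC-sEV and 0 UMIs in PBS. That is 71.7 CPM (65.7 to 78.1) in MSC-sEV. CPM is the UMIs of a gene per 1000000 UMIs of the cells, and the range is an exact Poisson 95% interval. In PBS, 3 UMIs would give a floor of 1.25 CPM, and the MSC-sEV level was 57.3-fold above that floor. The exact lower 95% limit of the ratio was 46.4. Postn had 480 UMIs in MSC-sEV and 0 UMIs in PBS, or 65.6 CPM (59.9 to 71.8) in MSC-sEV. That was 52.5-fold above the floor, with an exact lower limit of 42.5. Among C1q-positive cells, both genes were thus counted in the MSC-sEV library only. Intervals and floors cover counting error only, not mice or cells.

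By cells, Col6a3 was seen in 117 of 580 C1q-positive MSC-sEV cells (20.2%, exact Clopper-Pearson 95% interval 17.0 to 23.7) and in 0 of 203 PBS cells. By the limit of 3 counts, 0 of 203 allows a share of cells with a UMI of up to 1.48%, and the exact upper limit is 1.80%. Cells without a UMI may still express a gene, and the PBS cells were shallower, at a median of 5487 UMIs. Postn was seen in 134 of 580 MSC-sEV cells (23.1%, 19.7 to 26.8) and in 0 of 203 PBS cells. In rod-like cells, which should lack both genes and show what free RNA gives, the MSC-sEV shares were 0.342% for Col6a3 and 0.171% for Postn at a median of 2528 UMIs, against 7283 UMIs in the C1q-positive cells. The shares in C1q-positive MSC-sEV cells were therefore far above those in rods. Thinned to 1000 UMIs per cell, which left out 43 MSC-sEV and 31 PBS cells, they were 5.77% for Col6a3 and 5.21% for Postn in MSC-sEV and 0% in PBS. MSC-sEV cells just inside the gate, with 3 to 9 C1q UMIs, had 0 Col6a3 and 3 Postn UMIs in 108 cells at a median of 1705 UMIs. MSC-sEV cells with 1 to 2 C1q UMIs, outside it, had 2 and 4 UMIs in 789 cells.

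The C1q gate took in different cells of the 2 libraries. In MSC-sEV, 386 of the 580 cells lay in microglia-like clusters and 97 in the macrophage-like cluster, while in PBS only 99 of 203 lay in microglia-like clusters and 104 elsewhere, among them 29 Müller glia-like cells and 29 of rod-like cluster 17. The 8 rod markers made up 0.345% of the UMIs of C1q-positive cells in MSC-sEV and 4.18% in PBS. The ratios of the 10 genes are therefore also given for the C1q-positive cells of microglia-like clusters, with median depths of 6924.5 UMIs in MSC-sEV and 3377 in PBS. There Col6a3 had 468 UMIs in MSC-sEV and 0 UMIs in PBS, 22.9-fold above the floor, with an exact lower limit of 18.6. Postn had 430 and 0, 21.1-fold above the floor, with a lower limit of 17.0. Cluster 11 is the one microglia-like cluster with many cells of both libraries. Over all its cells, Postn had 62 UMIs in MSC-sEV and 0 in PBS, 3.99-fold above the floor (lower limit 3.15). Col6a3 had 26 and 0 there, 1.67-fold above the floor (lower limit 1.27). In cluster 11 the level of Col6a3 in MSC-sEV was also lower, at 32.5 CPM against 104.9 CPM in C1q-positive cells of all microglia-like clusters, and the PBS floor was higher, at 19.4 CPM against 4.58 CPM.

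**Figure D1:**
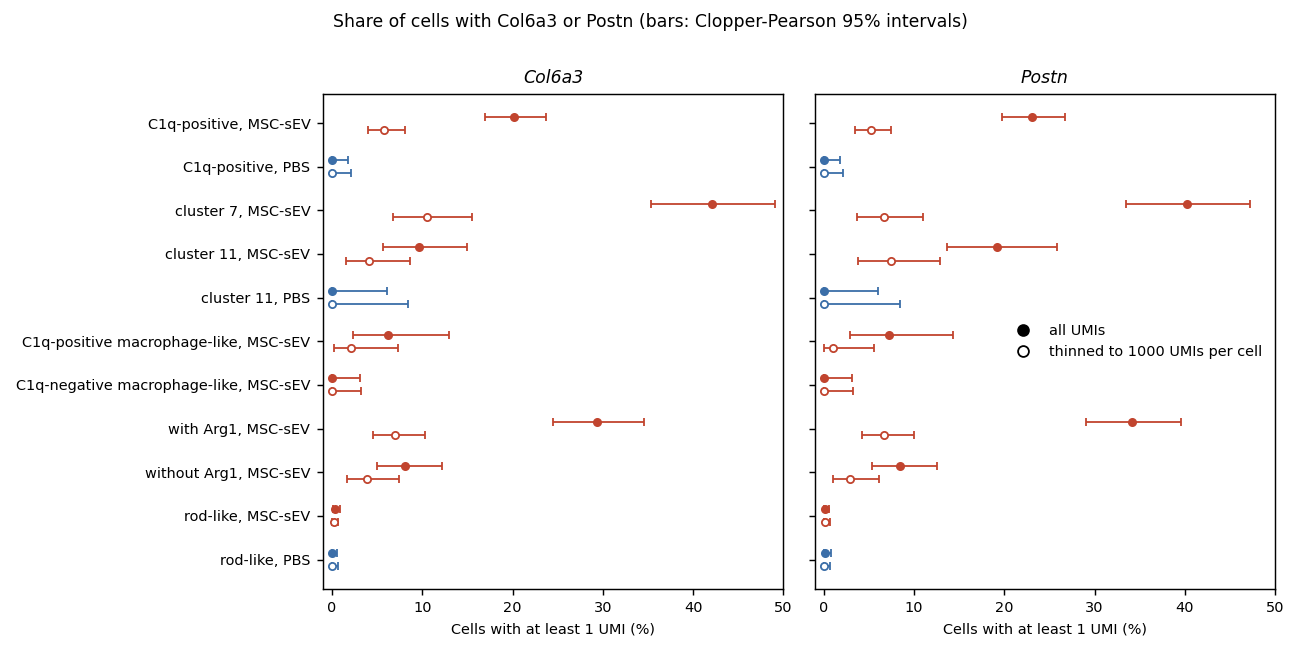
Share of cells with at least 1 UMI of Col6a3 (left) and Postn (right) in percent, for MSC-sEV (red) and PBS (blue), before (filled) and after (open) thinning to 1000 UMIs per cell, with Clopper-Pearson 95% intervals. Cluster 7 has the highest unthinned shares, 42.1% and 40.2%, and both PBS sets of C1q-positive cells are at 0.

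Within the MSC-sEV library and by class, both genes were highest in microglia-like cells. Col6a3 was at 119.6 CPM (108.7 to 131.2) in C1q-positive cells of cluster 7, 33.9 (22.2 to 49.7) in those of cluster 11, 16.9 (11.9 to 23.4) in C1q-positive macrophage-like cells and 0 UMIs in the 117 C1q-negative ones. Postn was at 99.5 CPM (89.6 to 110.2), 81.0 (62.1 to 103.8), 16.0 (11.1 to 22.4) and 0 UMIs in the same sets. For Postn the intervals of clusters 7 and 11 overlap, and for Col6a3 they do not, but they leave out the spread between cells. Of the 34 Postn and 36 Col6a3 UMIs in macrophage-like cells, 1 cell held 23 and 1 cell held 18. Most of these UMIs, 29 of Postn and 34 of Col6a3, lay in subcluster 2 of that class, described below. Over all cells of subcluster 2, Col6a3 was at 31.7 CPM (22.0 to 44.3), near the 32.5 CPM (21.2 to 47.6) over all MSC-sEV cells of cluster 11. Postn was at 27.0 CPM (18.1 to 38.8) in subcluster 2, below the 77.5 CPM (59.4 to 99.3) of cluster 11.

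The genes used to tell microglia from monocyte-derived cells split the signal in the same way. Cells with at least 2 UMIs of P2ry12, Tmem119, Siglech, Sall1, Gpr34 and Olfml3, genes of resident microglia, but fewer than 2 of Ccr2, Ly6c2 and Plac8, genes of monocytes, numbered 304 and had 115.3 CPM of Col6a3 and 98.9 CPM of Postn. The 91 cells with both kinds of genes had 19.3 and 25.1 CPM. The 40 cells with monocyte genes only had 0 and 1 UMIs at a median of 16788 UMIs per cell, deeper than the 10037 of the microglia-gene cells. Cells that carried only monocyte genes thus held almost none of either transcript.

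Arg1, which encodes arginase 1 and marks alternatively activated macrophages, was also seen with them. C1q-positive MSC-sEV cells with at least 3 Arg1 UMIs numbered 331 and had 84.7 CPM of Col6a3 (77.4 to 92.5), against 19.7 CPM (13.2 to 28.3) in the 249 without. Postn was at 74.6 CPM (67.8 to 82.0) with Arg1 and 29.9 CPM (21.8 to 40.2) without. The cells with Arg1 were deeper, at a median of 15046 UMIs against 2838. Inside cluster 7 the same split gave 141.9 CPM with and 26.6 CPM without Arg1 for Col6a3, and 113.4 and 41.9 CPM for Postn. Inside cluster 11, at medians of 3631 and 2304 UMIs, it gave 113.5 CPM with and 36.9 CPM without Arg1 for Postn, while the Col6a3 intervals, around 40.9 and 24.6 CPM, overlapped. Cells with at least 2 UMIs of the division genes Mki67 and Top2a had 56.4 CPM of Col6a3 (46.6 to 67.6), against 77.7 CPM (70.3 to 85.6) in those without. Postn was at 71.3 against 63.4 CPM, with intervals that overlap. The intervals in these splits assume UMIs spread evenly over cells. However, 10 of the 580 C1q-positive MSC-sEV cells held 35.9% of the Col6a3 and 32.5% of the Postn UMIs. The intervals are therefore too narrow, and no difference between sets of cells was tested. Of the gates tried, the microglia genes and Arg1 went with higher levels of both genes.

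Cells with Col6a3 held Postn more often than cells without it. Both were seen in 72 C1q-positive MSC-sEV cells. Postn was seen in 61.5% (52.1 to 70.4) of the cells with Col6a3 and in 13.4% (10.4 to 16.8) of those without. Depth enters such a comparison, since cells with both had a median of 20027 UMIs and cells with neither 4279. After thinning to 1000 UMIs the shares were 25.8% (11.9 to 44.6) and 3.95% (2.43 to 6.04), so the intervals stay apart at equal depth, with 8 cells that held both. The mix of classes enters too, since both genes were highest in microglia-like cells. Within cluster 7 alone, without thinning, the shares were 62.5% (51.5 to 72.6) and 24.0% (16.7 to 32.6), a smaller contrast. Tgfbi after thinning was seen in 3.23% (0.0816 to 16.7) of cells with Col6a3 and 14.4% (11.5 to 17.8) of those without, and these intervals overlap.

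By the Pearson correlation of log2(1 + UMIs per 10000) across the 580 cells, the gene most like Col6a3 among 9892 compared was Postn, and the reverse, with r = 0.42. After it came, for Postn, the inhibitory Fc receptor Fcgr2b (0.34), complement C3 (0.33) and Lag3 (0.32), and for Col6a3, Fcgr2b (0.34), transferrin Trf (0.34), Ggt5 (0.32) and Ccdc152 (0.31). These points share 1 library and differ in depth and in class, so r is a description. The correlation with total UMIs was 0.14 for Postn and 0.19 for Col6a3.

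The partner chains of collagen VI were near 0. C1q-positive cells had 2 Col6a1 UMIs in MSC-sEV and 2 in PBS, and 0 Col6a2 UMIs in either library, against the 524 and 0 of Col6a3. In all analysed cells Col6a1 had 2 UMIs in MSC-sEV and 3 in PBS, and Col6a2 2 and 1. Col6a3 was thus counted with almost no UMI of its usual partners in these libraries. Of 6 fibroblast markers, which would show the cells that usually make these proteins, 3 had a UMI in C1q-positive MSC-sEV cells. Their sum was 1.09 CPM, and Col1a1, Col3a1 and Lum were at 0. In C1q-positive PBS cells, many of them outside microglia-like clusters, the sum was 14.2 CPM, and 28 of its 34 UMIs were of Col1a2. In the 179 MSC-sEV cells with Postn or Col6a3 the sum was 1.203 CPM, and the 6 pericyte markers summed to 9.33 CPM against 9.28 CPM in the other C1q-positive MSC-sEV cells. Over all microglia-like cells the fibroblast markers had 6 UMIs in MSC-sEV, or 1.33 CPM, and 0 in PBS. There the pericyte markers summed to 13.5 CPM in MSC-sEV, mostly from 50 Cspg4 UMIs, and 4.56 CPM in PBS, from 3 UMIs. The 5 pigment epithelium markers summed to 19.3 CPM in the cells with Postn or Col6a3 and 7.02 CPM in the others, and the 8 Müller glia markers to 481.7 and 304.7 CPM. The part of either in the Postn and Col6a3 levels was not tested.

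Of the 6 matrix protein genes among the 10, Fn1 was seen in the most MSC-sEV cells, 396 of 2319. It was at 1174 CPM (1140 to 1209) in macrophage-like and 389.0 CPM (371.0 to 407.6) in microglia-like MSC-sEV cells. In PBS microglia-like cells it was at 7.59 CPM (2.47 to 17.7), from 5 UMIs. It was also present in endothelial-like cells, at 1551 CPM (1337 to 1789) in the 10 MSC-sEV cells and 714.1 CPM (594.8 to 850.2) in the 21 PBS cells. In MSC-sEV, macrophage-like and endothelial-like cells were thus the high classes and microglia-like cells an intermediate one. In PBS, microglia-like cells were near their floor of 4.56 CPM and not above Müller glia-like cells, at 10.3 CPM (5.91 to 16.8). The macrophage-like class was mixed, and Fn1 ranged from 34.7 to 1733 CPM over its 6 subclusters, described below. In C1q-positive cells Fn1 had 5365 UMIs in MSC-sEV and 39 in PBS, a ratio of 45.1 (32.9 to 63.5), and in microglia-like clusters 1751 and 5, a ratio of 51.4 (22.0 to 158.6). In cluster 11, over all its cells, the ratio was 7.34 (3.09 to 22.9), with 190 UMIs in MSC-sEV and 5 in PBS. Müller glia-like cells had 228 Fn1 UMIs in MSC-sEV and 16 in PBS, but 1 MSC-sEV cell held 154 of them. In rod-like cells the level was 7.90 CPM in MSC-sEV and 1.57 CPM in PBS.

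Tgfbi followed the monocyte side. It was at 752.4 CPM (725.4 to 780.3) in macrophage-like MSC-sEV cells, 168.6 (120.4 to 229.5) in the Ccr3 cluster, 133.9 (109.7 to 161.8) in T cell-like cells, and 99.0 (90.1 to 108.6) in microglia-like cells, against 18.2 CPM (9.42 to 31.8) in PBS microglia-like cells. The intervals of the Ccr3 cluster and T cell-like cells overlap. In C1q-positive cells Tgfbi had 2638 UMIs in MSC-sEV and 32 in PBS, a ratio of 27.0 (19.1 to 39.6), and in those of microglia-like clusters 447 and 11, a ratio of 5.97 (3.30 to 12.04). The genes most like it were the monocyte chemokine receptor Ccr2 (r = 0.62) and Plbd1 (0.61). For Fn1 they were F10, which encodes coagulation factor X, and Tgfbi itself (both 0.55). After thinning, Tgfbi was seen in 30.5% (22.8 to 39.2) of cells with Fn1 and 8.37% (5.87 to 11.5) of those without.

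Thbs1 and Vcan were scarce. Thbs1, which encodes thrombospondin 1, an activator of TGF-beta and a ligand of Cd36 and Cd47, was at 31.7 CPM (26.4 to 37.8) in macrophage-like MSC-sEV cells, and at 7.96 CPM (5.57 to 11.02) in MSC-sEV and 6.08 CPM (1.66 to 15.6) in PBS microglia-like cells. In C1q-positive cells it had 134 UMIs in MSC-sEV and 4 in PBS, a ratio of 10.98 (4.19 to 40.9). After thinning to 1000 UMIs per cell the direction turned, with 4 UMIs in MSC-sEV and 2 in PBS and a log2 ratio of -0.64. In microglia-like clusters it had 35 and 4, a ratio of 1.29 (0.459 to 4.98) that includes 1, and 3 cells held at least 50% of its UMIs in C1q-positive MSC-sEV cells. Vcan, which encodes the proteoglycan versican, had 18 UMIs in C1q-positive MSC-sEV cells and 0 in PBS, under the 20 UMIs asked for. Of its 76 MSC-sEV UMIs 50 lay in 1 Müller glia-like cell, and the 23 PBS UMIs all lay in 1 Müller glia-like cell. Neither number describes a class of cells.

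**Figure D2:**
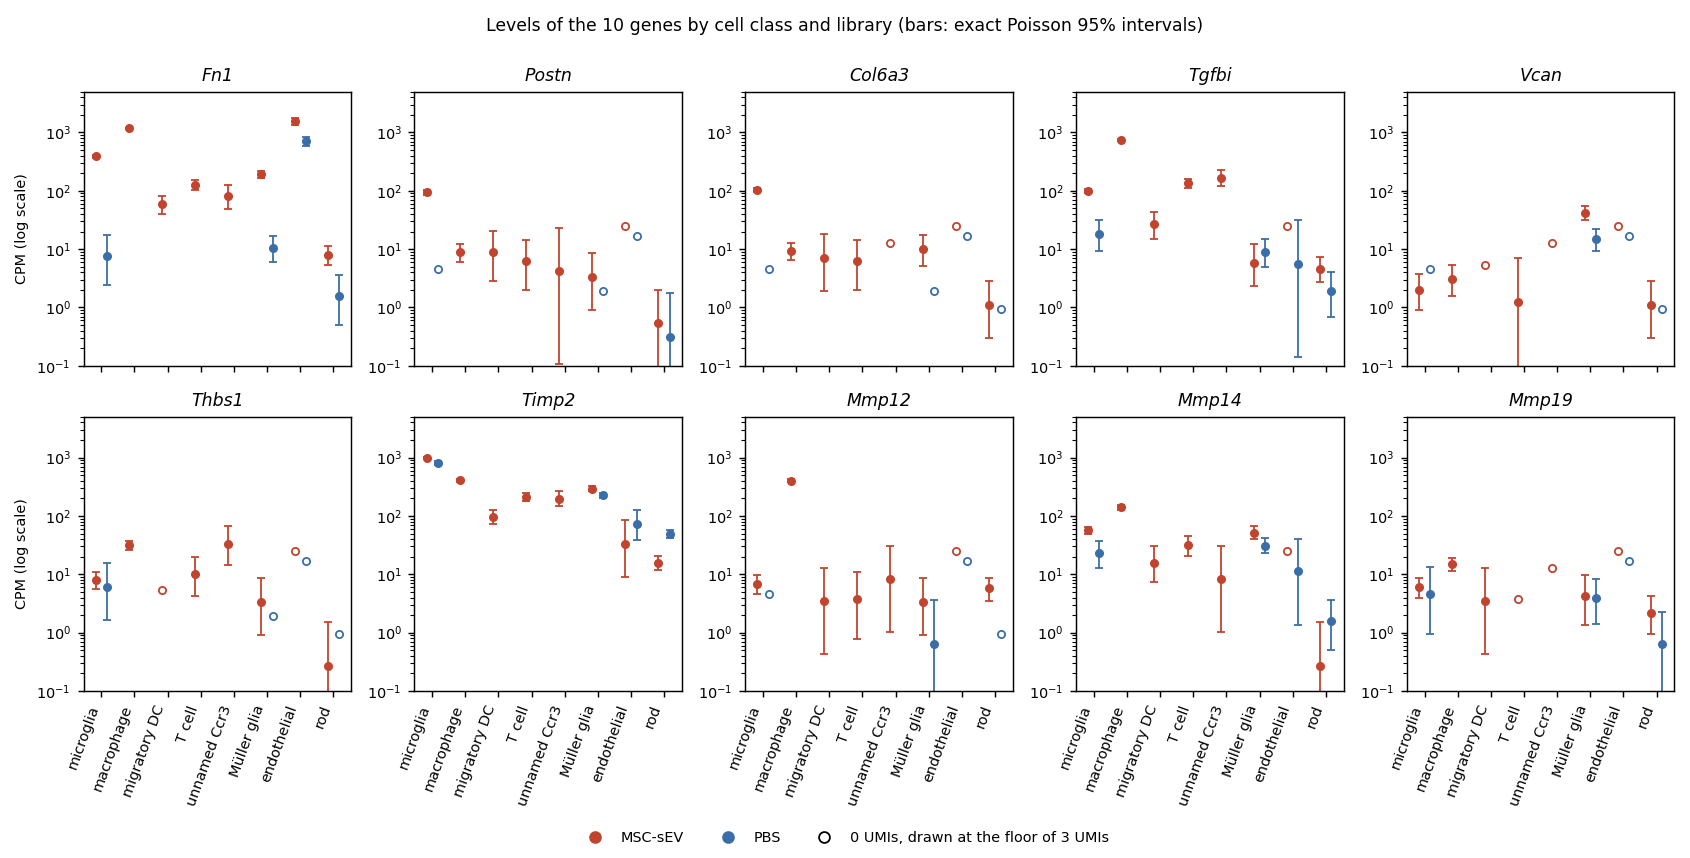
Level of each gene in CPM (log axis) by cell class, for MSC-sEV (red, left) and PBS (blue, right), with exact Poisson 95% intervals. Open points mark 0 UMIs and stand at the level of 3 UMIs, and classes without PBS points held no PBS cells. Col6a3 and Postn peak in MSC-sEV microglia-like cells, Fn1, Tgfbi, Mmp12 and Mmp14 are higher in macrophage-like than in microglia-like cells, and Timp2 is near equal between the libraries in microglia-like cells.

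Among the proteases, Mmp12 was concentrated in a handful of cells. In macrophage-like MSC-sEV cells it had 1568 UMIs, or 404.3 CPM (384.6 to 424.9), in 23 of 214 cells, and 1 cell held 1010 of these UMIs (64.4%). In C1q-positive cells it had 548 UMIs in MSC-sEV, of which 1 cell held 323, and 1 UMI in PBS, a ratio of 179.6 with an interval of 32.1 to 7108. The 10 highest of the 580 cells held 94.3%. Without the 10 MSC-sEV cells with the most Mmp12 the counts in C1q-positive cells were 42 in MSC-sEV and 1 in PBS. Poisson intervals assume even sampling of cells and are too narrow for such a gene. In C1q-positive cells of microglia-like clusters it had 26 UMIs in MSC-sEV and 0 in PBS, and the exact lower limit of the ratio, 0.963, did not exceed 1. Over all microglia-like cells it had 31 and 0, with a lower limit of 1.15. Rod-like cells had 21 UMIs in as many MSC-sEV cells and 0 in PBS, or 5.72 CPM. The 6.85 CPM of all microglia-like MSC-sEV cells (4.66 to 9.73) lay within the interval of these rods (3.54 to 8.75). Of these cells, those of cluster 11 were at 16.2 CPM, from 13 UMIs. The part of free RNA in these levels was not tested.

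Mmp14 was spread more evenly. It was at 139.8 CPM (128.2 to 152.0) in macrophage-like, 56.4 CPM (49.7 to 63.7) in microglia-like and 51.9 CPM (39.8 to 66.6) in Müller glia-like MSC-sEV cells, and in PBS at 22.8 CPM (12.8 to 37.6) in microglia-like and 31.0 CPM (22.9 to 41.2) in Müller glia-like cells. The microglia-like and Müller glia-like intervals overlap in each library. In C1q-positive cells it had 693 UMIs in MSC-sEV and 28 in PBS, a ratio of 8.11 (5.56 to 12.3), and in microglia-like clusters 252 and 15, a ratio of 2.47 (1.47 to 4.47). The genes most like it were the mannose receptor Mrc1 (r = 0.51) and F10 (0.50). Mmp19, a secreted metalloproteinase, had 73 UMIs in MSC-sEV and 5 in PBS, a ratio of 4.79 (1.96 to 15.2), and in microglia-like clusters 27 and 3, a ratio of 1.32 (0.407 to 6.81).

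Timp2 was the gene of the 10 with the most UMIs in PBS, 1134. It was at 977.8 CPM (949.2 to 1007) in MSC-sEV and 811.1 CPM (743.8 to 883.0) in PBS microglia-like cells, and its closest genes were C1qa (r = 0.61) and C1qc (0.60). In C1q-positive cells it had 6139 UMIs in MSC-sEV and 863 in PBS, a ratio of 2.33 (2.17 to 2.51). In microglia-like clusters it had 4421 and 533, a ratio of 1.22 (1.11 to 1.34). Over the macrophage-like MSC-sEV cells as a class it was lower, at 406.1 CPM (386.3 to 426.7). That class was mixed, and its subcluster 2, the one named monocyte-derived macrophage-like and described below, was not lower than microglia-like cells. In rod-like cells Timp2 went the other way between the libraries, with 58 UMIs or 15.8 CPM in MSC-sEV and 156 UMIs or 48.9 CPM in PBS. That is a ratio of 0.323 (0.235 to 0.439). The 14 microglia markers summed to 363.7 CPM in MSC-sEV and 1862 CPM in PBS rod-like cells. The part of microglial RNA in this ratio was not tested.

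**Figure D3:**
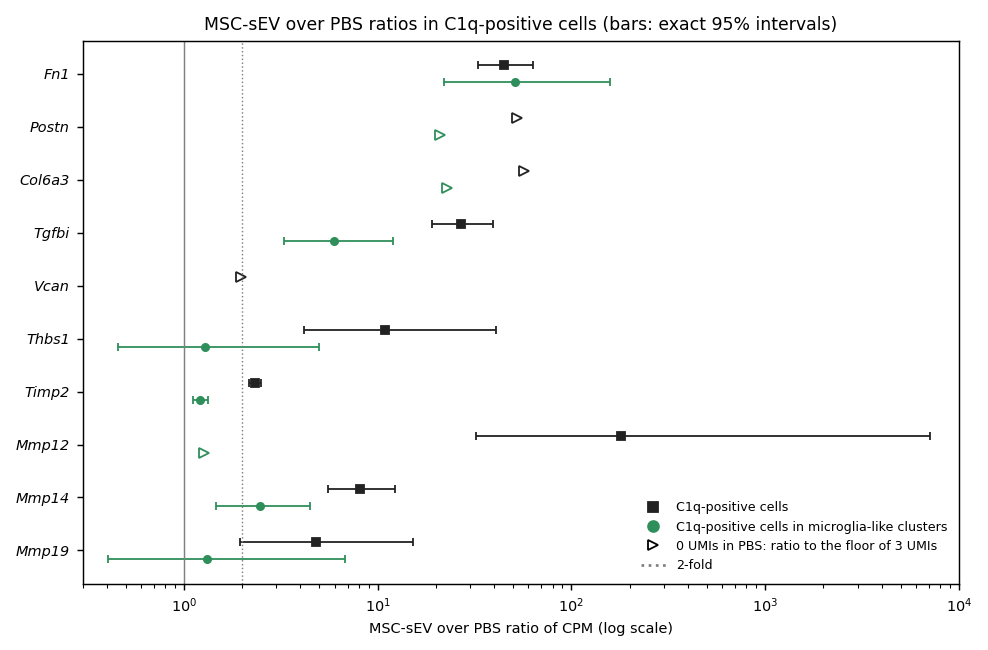
MSC-sEV over PBS ratio of CPM (log axis) for each gene in all C1q-positive cells (squares) and in those of microglia-like clusters (circles), with exact conditional 95% intervals. Triangles mark genes with 0 UMIs in PBS and stand at the ratio to 3 UMIs there, which is not drawn when below 1. The points of Timp2, Thbs1 and Mmp19 drop below the dotted 2-fold line once only microglia-like clusters are used. That of Mmp12 does too, but it is a ratio to 3 UMIs in PBS and not a measured one.

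In all C1q-positive cells, 9 of the 10 genes had at least 20 UMIs and these 9 were at least 2-fold higher in MSC-sEV, as were 21.8% of 12135 genes tested. Their choice fixed this direction. In the C1q-positive cells of microglia-like clusters 5 of the 9, Fn1, Postn, Col6a3, Tgfbi and Mmp14, were at least 2-fold higher, as were 12.4% of 10425 genes, and none was 2-fold lower, as were 7.88%. In cluster 11, over all its cells, 4 of the 6 with at least 20 UMIs, namely Fn1, Postn, Tgfbi and Mmp14, were at least 2-fold higher, as were 18.2% of 5773 genes, and none was 2-fold lower, as were 7.71%. Postn and Mmp14 had 0 UMIs in PBS there and were counted against the floor, with exact lower limits of 3.15 and 1.74. The markers of monocyte-derived macrophages summed to 9280 CPM in C1q-positive MSC-sEV and 672.5 CPM in PBS cells, and the part of such cells in these ratios was not tested. These markers also differed in microglia-like cells, at 4471 CPM in MSC-sEV, where all 12 had a UMI, and 1382 CPM in PBS, where 6 did. Ccr2 was at 47.5 CPM there in MSC-sEV and had 0 UMIs in PBS, so the ratios of Fn1, Tgfbi and Mmp14 in microglia-like clusters stand beside the same difference.

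The 214 macrophage-like cells were split again, a step added after the data had been seen, and the genes fell on different subclusters. Subcluster 0 (41 cells, classical monocyte-like by Ly6c2, Ccr2 and Plac8) had 2204 CPM of Tgfbi (2083 to 2329) and 0 Mmp12 UMIs. Subcluster 2 (43 cells, with Gpnmb, Spp1 and Arg1) had 1029 CPM of Timp2 (969.5 to 1092), 84.8 CPM of Thbs1 (68.3 to 104.2) and 1093 CPM of Mmp12, the last in 9 cells and mostly from the 1 cell with 1010 UMIs, and a Tgfbi level of 427.9 CPM (389.7 to 468.9). Fn1 did not separate them, at 1733 CPM (1626 to 1844) in subcluster 0 and 1725 CPM (1647 to 1805) in subcluster 2. In subcluster 1 (47 cells), unnamed, with 9 markers of type 2 conventional dendritic cells, Fn1 was at 34.7 CPM (23.4 to 49.5), Tgfbi at 127.3 CPM (104.6 to 153.4) and Mmp14 at 38.2 CPM (26.3 to 53.6), below subclusters 0, 2, 3 and 4 for each gene. Subcluster 3 (29 cells) carried rod transcripts. Subcluster 4 (43 cells), neutrophil-like by S100a9, Cxcr2 and Retnlg, was led by S100a9, Ccr3 and Mmp9, with 1528 CPM of Fn1 (1432 to 1628). Subcluster 5 held 11 cells, unnamed, with 6 markers of plasmacytoid dendritic cells. Subcluster 2 was the one named monocyte-derived macrophage-like. Each subcluster holds few cells of 1 library.

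**Figure D4:**
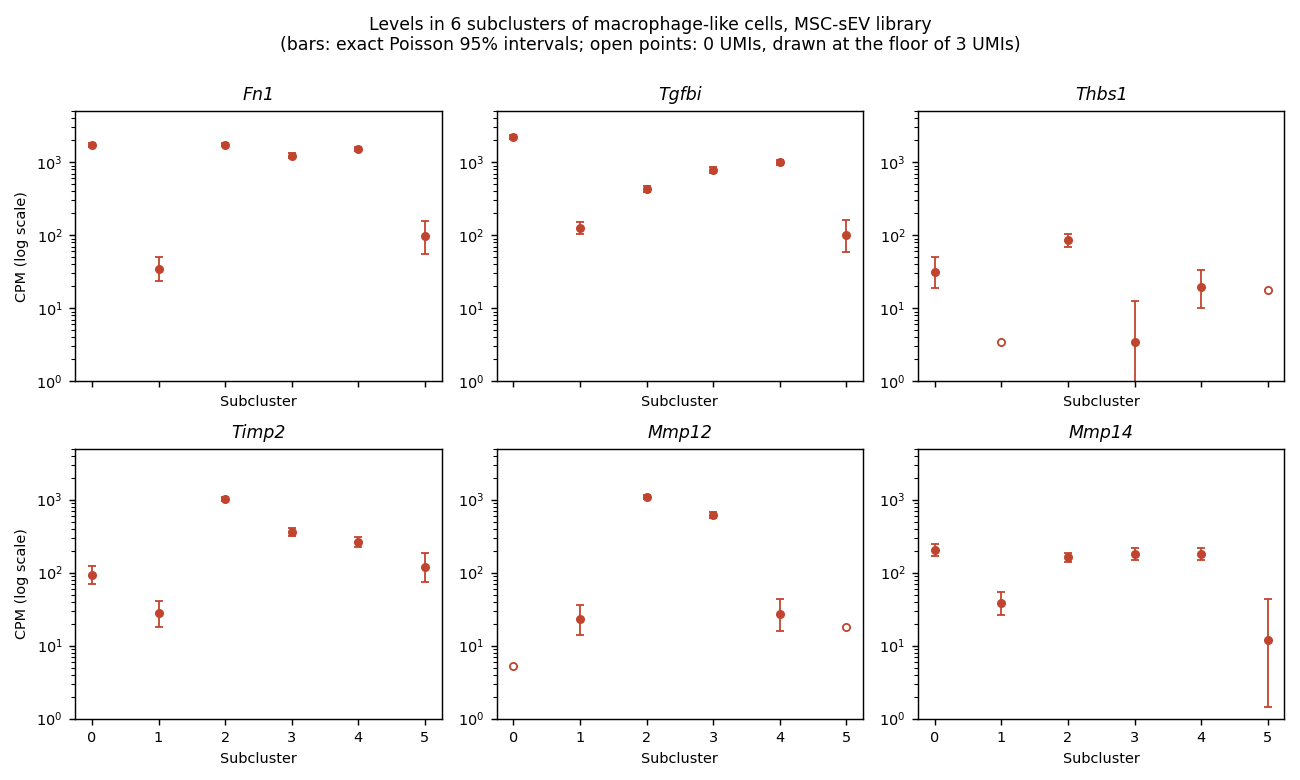
Levels in CPM (log axis) of 6 of the genes in the 6 subclusters of macrophage-like MSC-sEV cells, with exact Poisson 95% intervals and open points for 0 UMIs, drawn at the level of 3 UMIs. Tgfbi is highest in subcluster 0, Timp2, Thbs1 and Mmp12 in subcluster 2, and Fn1 and Mmp14 are low in subclusters 1 and 5.

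Cells differed in how evenly they shared each transcript. Of the 580 C1q-positive MSC-sEV cells, 58 held at least 50% of the Timp2 UMIs, 44 of Mmp14, 30 of Fn1, 24 of Tgfbi, 22 of Postn and 17 of Col6a3, but 3 of Thbs1 and 1 of Mmp12. The cells with a UMI were deeper, at a median of 18401 UMIs for Col6a3 against 5128 in cells without, and 16980.5 for Postn against 4940.5. The highest cell had 32 UMIs of Col6a3 and 34 of Postn.

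**Figure D5:**
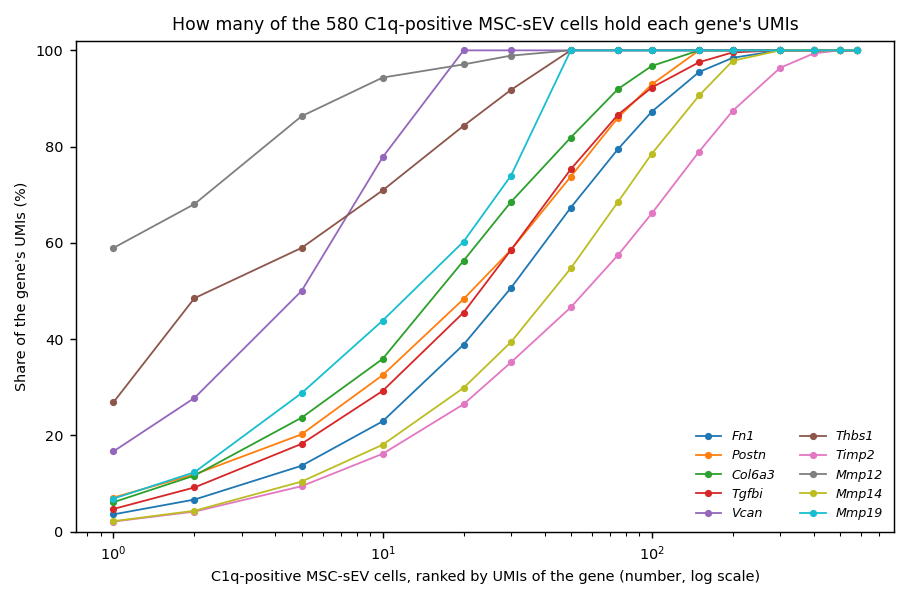
Share of each gene's UMIs (percent) held by the highest cells among the 580 C1q-positive MSC-sEV cells, ranked for each gene (number of cells, log axis). Mmp12 reaches 58.9% with 1 cell and 94.3% with 10 cells, while Timp2 reaches 16.2% and Mmp14 18.0% with 10.

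The other matrix genes did not move as 1 block. Of a list of 132, 128 were in the files and 74 had at least 20 UMIs in C1q-positive cells, of which 40 were at least 2-fold higher in MSC-sEV and 18 at least 2-fold lower, against 21.8% of all genes tested higher and 21.8% lower, with a median log2 ratio of 1.06 against 0.04 over all genes tested. In microglia-like clusters it was 15 higher and 8 lower of 52, against 12.4% and 7.88% of all genes, with a median of 0.38 against 0.06. There, receptors were 8 higher and 1 lower of 15, matrix proteins 3 and 3 of 11, proteases 2 and 2 of 13, and crosslinking enzymes 2 and 0 of 5. None of 4 inhibitors was 2-fold higher and 2 were 2-fold lower, and none of 4 genes of TGF-beta activation passed 2-fold either way.

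Among receptors, Cd36, the scavenger receptor that binds thrombospondin 1, had 353 UMIs in MSC-sEV and 3 in PBS cells of these clusters, a ratio of 17.3 (5.87 to 84.2). Itgb5, an integrin subunit, was at 515.1 CPM in MSC-sEV and 965.8 CPM in PBS, a ratio of 0.533 (0.488 to 0.583). Cd47, a further receptor of thrombospondin 1, had a ratio of 1.30 (1.06 to 1.61). The crosslinking enzyme Tgm2, transglutaminase 2, had 748 UMIs in MSC-sEV and 11 in PBS, a ratio of 9.99 (5.55 to 20.1). P4ha1, a subunit of the collagen prolyl hydroxylase, had a ratio of 0.930 (0.731 to 1.20). Cd36 and Tgm2 were thus higher in MSC-sEV in cells of microglia-like clusters too, and Itgb5 lower.

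Among matrix proteins, Srgn, which encodes the granule proteoglycan serglycin, was at 546.1 CPM in MSC-sEV and 236.5 CPM in PBS cells of these clusters, a ratio of 2.31 (1.96 to 2.73). Sparc, which encodes a collagen-binding protein, had a ratio of 0.536 (0.505 to 0.569), at 1147 CPM in MSC-sEV and 2141 CPM in PBS. Of the inhibitors, Cst3, cystatin C, had a ratio of 0.326 (0.320 to 0.332) and Serpine2, a serine protease inhibitor, one of 0.189 (0.162 to 0.220). The inhibitors Cst3 and Serpine2 were thus lower while Timp2 was not. The cathepsins Ctss and Ctsb, lysosomal cysteine proteases that also cut matrix, had ratios of 0.941 (0.918 to 0.965) and 1.53 (1.44 to 1.62). Tgfb1, which encodes TGF-beta 1, the inducer of Tgfbi, had a ratio of 0.906 (0.765 to 1.08) and its receptor gene Tgfbr1 one of 0.569 (0.503 to 0.646). Over all C1q-positive cells, Vtn, which encodes vitronectin, and Ctgf, connective tissue growth factor, ranked lowest by the interval limit closer to 1. Vtn had 535 UMIs in MSC-sEV and 3607 in PBS, a ratio of 0.049, and Ctgf had 7 and 145, a ratio of 0.016. In microglia-like clusters the ratio of Vtn was 0.271 (0.227 to 0.325), and Ctgf had 4 UMIs in MSC-sEV and 0 in PBS, too few to give a ratio. Müller glia markers summed to 385.1 CPM in MSC-sEV and 1622 CPM in PBS over all C1q-positive cells. In microglia-like cells they summed to 403.8 and 660.8 CPM. Their part in these ratios was not tested.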

How the data were processed

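Single-cell RNA of CD45-enriched retinal cells was measured in 2 libraries with a droplet kit for 3′ ends. The deposited values were whole-number UMI counts of each gene in each barcode. The authors obtained them by mapping to mm10 in Cell Ranger 3.0.2, per the labels' protocols, and for the annotation release the sources used here give no name. The members and lists were chosen with earlier results of these data known.

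From 2593 MSC-sEV and 1676 PBS barcodes, with 16987131 and 8439740 UMIs, 2323 and 1347 passed the filter, and Scrublet called 4 and 3 doublets. Both libraries were clustered together (scanpy 1.11.5, 2000 variable genes without the members and matrix list, 30 components, 20 neighbours, Leiden resolution 1.0). Genes with at least 20 UMIs in both sets together entered counts of 2-fold differences. Where PBS had 0 UMIs, 3 UMIs over the set were used. With 1 library per group there was no test. The ratio intervals were tried on simulated Poisson counts, which the intervals themselves assume. Those counts have no spread between cells or mice, so the trial checks the calculation only and not how the intervals hold in these data. Other matrix genes named were, per role, the 2 with the most UMIs, and overall 2 at each end of the ratios, ranked on whichever interval limit lay closer to 1. For likeness, genes seen in at least 5% of cells were compared. A gene that this comparison would name is not reported here. Alternatives changed the cell filter, doublets, gate, clustering, depth, denominator and weight of cells.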

Additional observations from a re-analysis of the deposited data

Results flagged for a closer look

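The barcodes left out by the filter, 270 of MSC-sEV with 421855 UMIs and 329 of PBS with 402521 UMIs, also held members. They had 24 Fn1 UMIs in MSC-sEV and 2 in PBS, a ratio of 11.4 (2.84 to 99.96), 7 Tgfbi UMIs in MSC-sEV and 0 in PBS, and 28 Mmp12 UMIs in MSC-sEV and 0 in PBS. These barcodes enter no comparison above, and their counts exceeded those of the control library. Timp2 had 26 UMIs in MSC-sEV and 23 in PBS.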

How the results depend on the processing

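No paired analysis was possible because each group had 1 library, and for the same reason no replicate could be left out. The number of genes at least 2-fold higher in C1q-positive MSC-sEV cells, 9 with the settings used, was 6 to 10 under the other alternatives but 5 with only cells of microglia-like clusters and 4 with only those of cluster 11, an alternative added after seeing the data. The share of MSC-sEV C1q-positive cells with Col6a3, 20.2%, was 7.88% with a gate of 1 C1q UMI, 24.1% with a gate of 10, 5.77% after thinning to 1000 UMIs, 27.2% in microglia-like clusters and 9.6% in cluster 11. The share with Postn, 23.1%, was 9.13%, 27.0%, 5.21%, 30.6% and 19.2% under the same alternatives. Thinning removes UMIs and a lower gate adds cells. PBS had 0 cells with either gene inside the gate of each alternative except for 2 Postn UMIs with the gate of 1 UMI. The ratio of Thbs1 turned to a log2 value of -0.64 after thinning, with 4 UMIs in MSC-sEV and 2 in PBS. Of the 10 genes, 7 were higher in macrophage-like than microglia-like MSC-sEV cells, and 6 when classes were given cell by cell from marker scores, where Vcan was not. Shares of cells do not depend on the denominator or the weight of cells, so these gave no value for them. Without the 10 cells with the most Mmp12, also added later, the counts of genes were the same. In PBS microglia-like cells the floor of 3 UMIs was 4.56 CPM, which limits what can be seen there.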
